A study of Mus musculus with 12 samples.

Results

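Olfr78 and Olfr558 are 2 genes of the mouse olfactory receptor family, and they are 2 of the 33352 genes counted in RNA from cells sorted out of the mouse aorta and its perivascular fat. They were taken by their symbols in the table of raw counts. The pair was chosen by measured values, the high read counts of both genes in the smooth muscle population SMC2 against the population SMC1, so their levels in those libraries are given as a description and support nothing by themselves. The table holds 707 other genes whose symbol starts with Olfr, which serve as the family background.

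The cells came from wild type male CD-1 mice, an outbred strain, at 13 weeks of age. Aortas with the surrounding fat were digested with collagenase D and dispase II, and 4 populations were sorted by flow cytometry: progenitor cells (Progenitor), intermediate cells (Intermediate), SMC1 and SMC2, with 3 libraries each. None of the groups carried a transgene, deletion or treatment according to the labels. The gates and antibodies of the sort are not given in the sources used here, and nothing says whether a library is 1 mouse or a pool. A p-value below thus speaks only of how far these 12 libraries scatter, part of which may be technical.

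Olfactory receptors are G protein-coupled receptors of the cell surface. In the nose each sensory neuron makes chiefly a single receptor type, which signals through the G protein Golf (Gnal) and adenylyl cyclase type III (Adcy3) to raise cyclic AMP. Olfr78 and Olfr558 are among the few family members known outside the nose, and both respond to short-chain fatty acids, the acids that gut bacteria make by fermentation. Olfr78 is known in the smooth muscle of small arteries, in renin-producing cells of the kidney and in the oxygen-sensing glomus cells of the carotid body. Their human counterparts are OR51E2 and OR51E1.

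The genes lie close together in a cluster of olfactory receptor genes on chromosome 7 of GRCm38. In GENCODE M21, Olfr558 (ENSMUSG00000070423) spans chr7:102702215-102712064 on the plus strand, with 3041 exon bases, and Olfr78 (ENSMUSG00000043366) spans chr7:102738511-102759471 on the minus strand, with 6033. Their start sites are 57.3 kb apart. Of the Olfr78 exon bases, 926 (15.3%) are shared with Olfr560, and 101 bases of Olfr558 (3.32%) overlap the gene model Gm45688. Reads in these bases could be assigned to either gene, and how the counting treated them is not given. Over the coding sequence, 611 of 939 aligned bases (65.1%) were identical between the pair, and the longest identical run was 23 bases. That run is printed because identical stretches limit how well a short read can be assigned to either gene. Capitals mark it within its surroundings, and it falls on the conserved stretch that encodes the inner end of the third membrane-spanning segment. It covers positions 340 to 362 of the Olfr78 and 349 to 371 of the Olfr558 coding sequence, counted from 1 at the start codon.
Olfr78: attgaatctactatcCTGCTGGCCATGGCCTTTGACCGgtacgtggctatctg
Olfr558: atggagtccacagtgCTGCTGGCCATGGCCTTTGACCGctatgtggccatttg

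For Olfr558 the RefSeq promoter table of GRCm38.p6 gives the 300 bases at chr7:102702073-102702372 on the plus strand. They run from 250 bases before to 50 after the start that this table uses. That start lies inside the GENCODE gene body given above, so part of the window before it is within that gene body. This sequence is shown because the gene is so unevenly expressed between the populations. Capitals mark the matches of the motifs searched, an E-box (CANNTG) at position -122 and an RBPJ site (TGGGAA) at position -64. Positions count from the start in the RefSeq table as 0, not from the GENCODE start, and the RBPJ letters lie inside the GENCODE gene body.
Olfr558: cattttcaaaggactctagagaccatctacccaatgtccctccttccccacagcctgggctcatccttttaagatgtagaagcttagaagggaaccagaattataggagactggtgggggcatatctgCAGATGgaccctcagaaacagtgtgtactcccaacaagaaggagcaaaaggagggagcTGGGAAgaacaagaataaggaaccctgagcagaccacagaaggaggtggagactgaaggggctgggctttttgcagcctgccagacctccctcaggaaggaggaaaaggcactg

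Both strands were searched. An E-box is common, being present in 72.3% of all 32851 promoters of the table and in 77.5% of the 948 olfactory receptor promoters, and the RBPJ letters are present in 25.6% and 21.7%. This window held no match to the CArG box (present in 1.63% of all promoters), the MEF2 site (3.69%), the TEAD site CATTCC (14.7%), the hypoxia element ACGTG (19.6%), the nuclear receptor element AGGTCA (16.3%), the EBF site (0.904%), the homeodomain site TAATTA (5.29%) or the TATA box TATAAA (13.6%). No promoter of Olfr78 is printed.

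Both receptors were abundant in SMC2 and scarce in the other populations. Levels are given as CPM, counts scaled to library size, with the SD over n = 3 libraries. Olfr78 was at 769, 527 and 345 CPM in the SMC2 libraries, from 16704, 10674 and 5743 counts. In the SMC1 libraries it was at 4.84, 2.47 and 1.41 CPM, from 95, 53 and 24 counts. The Progenitor libraries held 14, 7 and 2 counts (0.638, 0.467 and 0.126 CPM), and the Intermediate libraries 2, 12 and 6 (0.124, 0.754 and 0.383 CPM). The lowest SMC2 library was thus far above the highest SMC1 library, all 3 SMC1 libraries were above all 6 Progenitor and Intermediate libraries, and the latter overlapped each other.

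Olfr558 had the same order of populations. It was at 1666, 1252 and 1048 CPM in SMC2, from 36195, 25346 and 17465 counts. It was at 12.2, 7.46 and 7.03 CPM in SMC1, from 240, 160 and 120 counts. The Progenitor libraries had 28, 20 and 14 counts (1.28, 1.33 and 0.884 CPM) and the Intermediate libraries 26, 28 and 22 (1.62, 1.76 and 1.41 CPM). Here too SMC2 and SMC1 did not overlap with any other population, and the 3 Intermediate libraries lay just above the 3 Progenitor libraries.

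**Figure D1:**
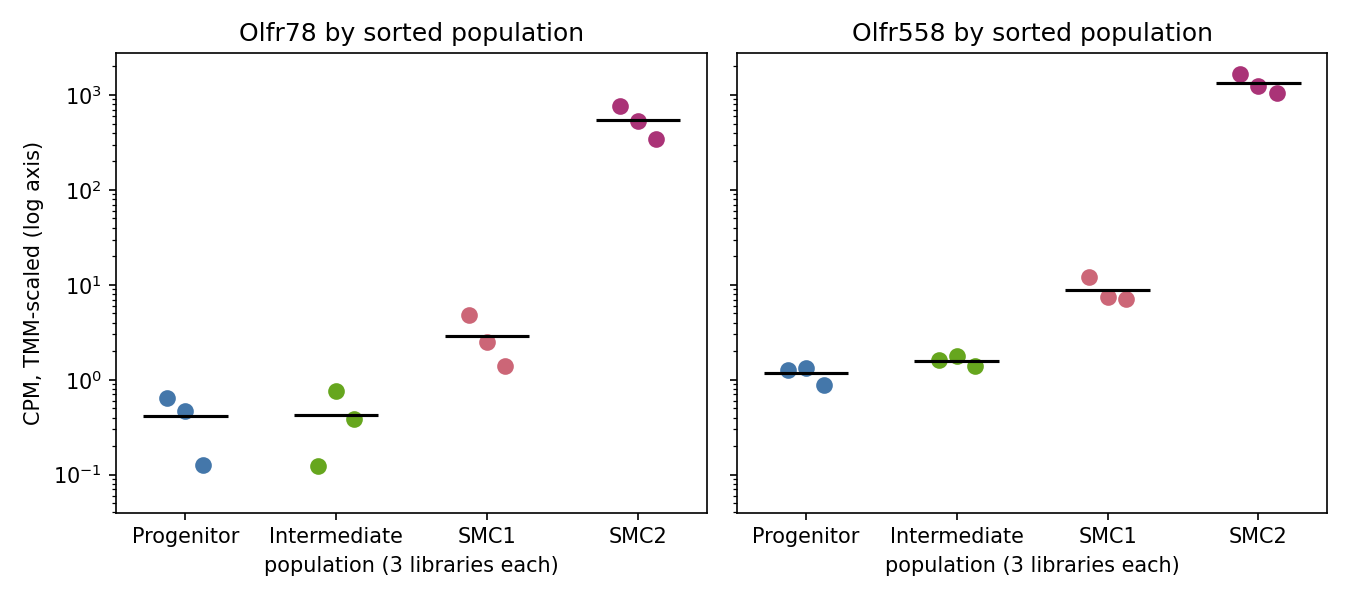
CPM of Olfr78 (left) and Olfr558 (right) in each of the 12 libraries, on a log axis shared by both panels. Points are libraries and bars are means of 3. The SMC2 points lie between 345 and 769 CPM for Olfr78 and between 1048 and 1666 CPM for Olfr558, and every SMC1 point lies between the SMC2 points and those of the other populations.

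As group means, Olfr78 was at 546.8 ± 213 CPM in SMC2, 2.90 ± 1.76 in SMC1, 0.420 ± 0.316 in Intermediate and 0.410 ± 0.260 in Progenitor (SD, n = 3). Olfr558 was at 1322 ± 315, 8.90 ± 2.88, 1.59 ± 0.178 and 1.16 ± 0.244 in the same order. The SMC1 mean was 0.531% of the SMC2 mean for Olfr78 and 0.673% for Olfr558. In RNA from a sorted population, fewer cells that hold a transcript and less of it per cell cannot be told apart.

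Divided by exon length, which allows genes to be compared, Olfr558 was at 434.7 ± 103 CPM per kilobase in SMC2 and Olfr78 at 90.6 ± 35.3. In this and later values per exon length, the length of Olfr78 includes the bases shared with Olfr560, where some reads may not have been counted. Among the 33323 genes with an annotated length, Olfr558 ranked 60 and Olfr78 ranked 472 by this level in SMC2. In SMC1 the ranks were 8831 and 14653, in Intermediate 15045 and 24455, and in Progenitor 16847 and 27918. In SMC2, therefore, both receptors stood among the most abundant transcripts, which they did not in the other populations.

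The changes between populations are log2 changes with their standard error from a model of all 12 libraries. From SMC1 to SMC2 the difference was 7.54 ± 0.47 for Olfr78 and 7.21 ± 0.28 for Olfr558, which were numbers 6 and 10 of 19016 genes ordered from the highest change down. From Progenitor to SMC2 the differences were 10.29 ± 0.57 and 10.13 ± 0.33, and they were the 2 highest changes of the comparison. From Intermediate to SMC2 they were 10.32 ± 0.57 and 9.69 ± 0.32, at ranks 3 and 6. These comparisons share the SMC2 libraries on which the pair was noticed, so no p is given.

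SMC1 was also above Progenitor and Intermediate. Its difference from Progenitor was 2.74 ± 0.60 for Olfr78 and 2.92 ± 0.28 for Olfr558, and from Intermediate 2.78 ± 0.61 and 2.48 ± 0.27. These are again descriptions, since the SMC1 libraries took part in the choice. Ranks 750 and 659 in the comparison with Progenitor, and 648 and 785 in that with Intermediate, place the pair well inside the range of other genes here, unlike in the SMC2 comparisons.

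Intermediate against Progenitor compares no library of the contrast on which the pair was noticed, and it was tested with no pairing of libraries. Its estimate of spread still came from all 12 libraries, those of SMC1 and SMC2 included. Neither receptor passed edgeR's quasi-likelihood test at an adjusted p of 0.05, a threshold that 22.2% of all 19016 genes passed in this comparison. Olfr78 differed by -0.04 ± 0.84 (adjusted p = 0.981), and the sign turned to 0.063 (adjusted p = 0.953) when replicate numbers entered as a block. Without Progenitor replicate 1 it was 0.53, and without Intermediate replicate 1 it was 0.41. Olfr558 differed by 0.44 ± 0.33 (adjusted p = 0.362), although the 3 Intermediate libraries lay above the 3 Progenitor libraries. With 2 to 28 counts per library, a difference of the size of these errors was not detectable.

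**Figure D2:**
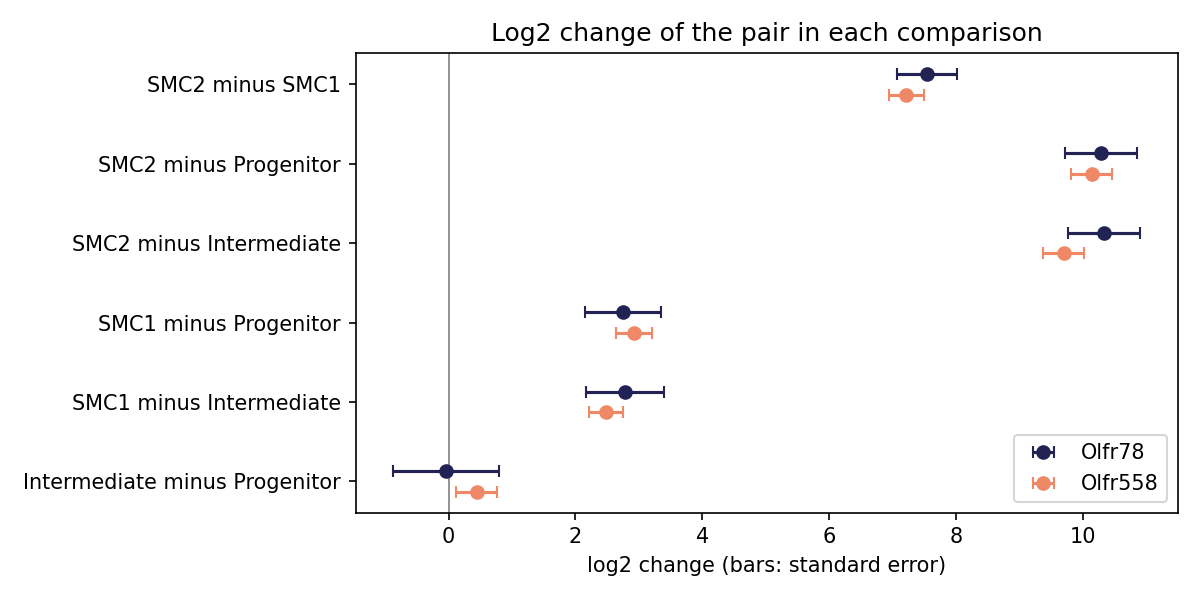
Log2 change of Olfr78 (dark) and Olfr558 (orange) in the 6 comparisons, with bars of 1 standard error. The 3 comparisons with SMC2 lie between 7.21 and 10.32, those of SMC1 with Progenitor and Intermediate between 2.48 and 2.92, and Intermediate minus Progenitor lies at -0.04 and 0.44.

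The balance between the 2 receptors comes from the same counts that the choice used, so it is described with no test. Per exon length, Olfr558 exceeded Olfr78 by 4.30, 4.71 and 6.03 times in the SMC2 libraries. In the SMC1 libraries it exceeded it by 5.01, 5.99 and 9.92 times. The mean log2 ratio was 2.31 ± 0.253 in SMC2 and 2.74 ± 0.511 in SMC1 (SD, n = 3), a difference of -0.43, which is smaller than the SD of the SMC1 libraries. Leaving out 1 library at a time moved the difference between -0.64 and -0.14. Olfr558 was the higher receptor in all 12 libraries. No mean ratio is given for Progenitor and Intermediate, since a library of each held only 2 Olfr78 counts.

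Smooth muscle identity was checked with 8 marker genes, summed as CPM. The sum was 18822 to 26836 in the SMC2 libraries and 29185 to 35326 in the SMC1 libraries, against 254 to 551 in Progenitor and 491 to 625 in Intermediate, so both SMC labels carry the contractile genes. Between SMC2 and SMC1, 4 of the 8 were lower in SMC2, 1 was higher and 3 were not called, with a median log2 change of -0.65 (of all genes tested, 18.1% were lower and 16.5% higher). Acta2, smooth muscle actin, was at 14508 ± 2391 CPM in SMC2 and 19485 ± 2247 in SMC1 (log2 change -0.43 ± 0.29, adjusted p = 0.268). Summed pericyte markers were at 2189 to 2914 CPM in SMC2 and 3544 to 4340 in SMC1, against 1179 to 1235 in Intermediate and 462 to 781 in Progenitor. Of these 9 markers, 3 were higher in SMC2 than in SMC1, 4 lower and 2 not called. Against Intermediate and against Progenitor, 6 were higher in SMC2 and 2 lower (background 44.6% and 44.8% called). Fibroblast and stromal progenitor markers ran from 40970 to 62616 CPM in Intermediate and Progenitor and from 420 to 865 in SMC2.

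Markers of other cell types moved with the receptors in part. Summed adipocyte markers were at 1893 to 2294 CPM in SMC2 and at 54.1 to 309.8 in the other 9 libraries. Of the 8 markers, 7 were higher in SMC2 than in SMC1, with Pparg at 366.5 ± 77.6 CPM and Adipoq at 90.2 ± 27.8. The background for the counts in this paragraph is 34.6% of all genes called between SMC2 and SMC1, with 16.5% higher and 18.1% lower. Summed Schwann cell markers were at 78.5 to 167 CPM in SMC2 and at most 41.7 elsewhere, with 5 of 6 higher in SMC2 than in SMC1. Markers of nerve, chromaffin and glomus cells summed to 15.6 to 20.5 CPM in SMC2 and 8.44 to 14.5 in SMC1, and 2 of the 5 tested were higher in SMC2 and none lower (median log2 change 1.11). Only these 5 of 8 listed passed the filter, which can let a low gene in through SMC2 alone, so this count is no measure of them. The part of any of these cell types in the levels of the receptors was not tested. Th, an enzyme that marks glomus cells, was at 0.0307 CPM in SMC2. The defining gene of olfactory neurons, Omp, was at 0.387 ± 0.0984 CPM in SMC2, and of 6 tested markers of that cell 1 was higher in SMC2 than in SMC1, 1 lower and 4, Omp among them, not called. Endothelial markers summed to 57.4 to 146 CPM in SMC2 and 320 to 434 in SMC1, macrophage and leukocyte markers to 102 to 231 in SMC2, melanocyte markers to 13.2 to 13.5 and mesothelial markers to 13.9 to 35.2.

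No other olfactory receptor had counts near those of the pair. Of 709 Olfr genes listed, the 707 others had 10 to 854 counts in all 12 libraries together, with a median of 23, and 33 had 100 or more. The pair had 33336 and 79664. Every row of the table holds at least 10 counts in total, so Olfr genes below that level are not listed, and GENCODE M21 names 1407 Olfr genes. At least 10 counts in 3 libraries were reached by 55 of the 707. In SMC2 the pair took 97.2%, 91.6% and 80.5% of all Olfr counts. In SMC1 it took 30.0%, 12.1% and 6.79%, in Intermediate 1.74% to 5.48% and in Progenitor 0.611% to 1.52%.

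The reads of the other 707 genes were spread thinly over many of them. They came to 73.1, 187 and 425 CPM of total counts in the SMC2 libraries, 38.6 to 111 in SMC1, 31.5 to 98.5 in Intermediate and 120 to 155 in Progenitor. SMC2 replicate 3 had the most, with a count in 692 of the 707 genes, and the same library had the lowest level of both Olfr78 and Olfr558. Within SMC2 the pair was thus lowest where the family background was highest. Of the 707 genes, 450 had their highest group mean in SMC2 and 207 in Progenitor.

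**Figure D3:**
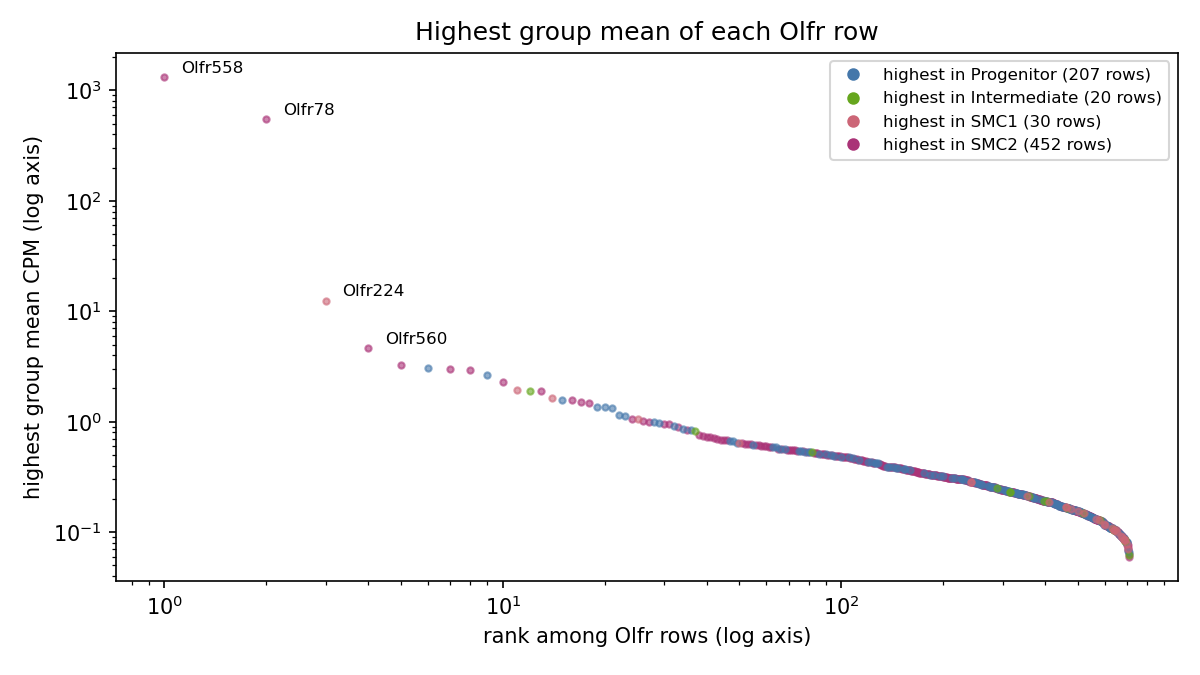
Highest group mean (CPM) of each of the 709 Olfr genes against its rank, both axes on a log scale, coloured by the population with that mean. Olfr558 at 1322 and Olfr78 at 546.8 CPM stand apart from Olfr224 at 12.5 CPM and from the rest, of which Olfr560 at 4.62 CPM is the highest.

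The filter on low counts kept 58 of the 707 genes, and a gene that passed through 1 population only had to differ from the others, so these counts do not stand for the family. Between SMC2 and SMC1, 16 of the 58 were higher in SMC2 and 2 lower, 31.0% against 34.6% of all genes tested, of which 16.5% were higher and 18.1% lower; their median log2 change was 1.69, against -0.003 over all genes. Without SMC2 replicate 1, the SMC2 library with the least family background, 45 other Olfr genes were called, 43 higher in SMC2. The filter was run anew in each fit without a library, so the genes tested can differ from the 58. The background shares given here and in the next paragraph are those of all 12 libraries, so they do not apply to the reduced fits. From Progenitor to SMC2, 7 were higher and 1 lower (13.8%, background 44.8%, with 23.1% higher and 21.7% lower), and from Intermediate to SMC2 all 16 that were called were higher (27.6%, background 44.6%, with 21.4% higher), with 30 called without Intermediate replicate 3 and 44 without SMC2 replicate 1.

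SMC1 was below Progenitor for 19 of these genes and above for 4 (39.7%, background 48.3%, with 23.1% lower and 25.3% higher); 14 were called without SMC1 replicate 1 and 35 without SMC2 replicate 1. Against Intermediate it was below for 11 and above for 5 (27.6%, background 41.6%, with 21.9% lower and 19.7% higher), with 10 called without SMC1 replicate 1. Intermediate was below Progenitor for all 5 that were called (8.62%, background 22.2%, with 9.46% lower); with replicate numbers as a block 9 were called, and leaving out 1 library gave 3 to 9.

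Individual genes of the family had other patterns. Olfr224, with the most counts of the 707, was highest in SMC1, with 196, 237 and 282 counts in SMC1 and 32, 61 and 31 in SMC2. It fell by 2.56 ± 0.38 from SMC1 to SMC2 (adjusted p = 1.88e-05), the opposite direction to the pair. Olfr433 had 106, 37 and 31 counts in Progenitor and at most 7 in any other library, and since it entered the test through Progenitor alone, no p is given. Olfr920 had 26 to 40 counts in SMC2, 9 to 30 in SMC1 and 31 to 62 in Progenitor and Intermediate, and did not pass between SMC2 and SMC1 (adjusted p = 0.115). Olfr456 rose by 1.16 ± 0.36 from SMC1 to SMC2 (adjusted p = 0.0174) and Olfr90 by 2.27 ± 0.56 (adjusted p = 0.00307), while Olfr482 did not pass (0.07 ± 0.36, adjusted p = 0.901).

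Other families of chemical sense receptors also had few counts. The table lists 95 vomeronasal receptors of type 1 (11 tested), 77 of type 2 (2 tested), 5 trace amine receptors (none tested), 3 type 1 taste receptors (2 tested) and 10 type 2 taste receptors (2 tested). The highest group mean of any of them was 2.23 CPM, for the bitter taste receptor Tas2r126.

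Some olfactory receptor genes next to the pair were also read mainly in SMC2. Within 500 kb of either gene, the table has 34 other Olfr genes, 6 of them named by identifier only, and 13 other genes. Only 8 of the 34 passed the filter. Olfr560, whose exons overlap those of Olfr78 over 42.7% of its exon bases, had 118, 111 and 49 counts in SMC2 and 2 counts in the other 9 libraries together. Its SMC2 counts were 0.706%, 1.04% and 0.853% of the Olfr78 counts of the same libraries. Olfr33, whose annotated body begins just past the end of Olfr558 on the opposite strand and which shares an identical coding run of 29 bases with it, had 83, 58 and 53 counts in SMC2, 2 in SMC1, 0 in Intermediate and 6 in Progenitor, and its SMC2 counts were 0.229%, 0.229% and 0.303% of those of Olfr558. The libraries do not mark strand, so reads from overlapping transcripts of both strands could not be told apart.

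Next to these, Olfr559 had 38, 52 and 42 counts in SMC2 against 7 in SMC1, 1 in Intermediate and 11 in Progenitor. Olfr557 had 41 counts in SMC2 and 8 in Progenitor and was not detected in SMC1 or Intermediate. Olfr561, on the far side of Olfr78, had 90 counts in SMC2 and 12 or fewer in each other population. Farther out, Olfr543 had 179 counts in SMC2, 11 in SMC1, 33 in Intermediate and 40 in Progenitor, and Olfr544 had 59, 8, 11 and 23. All of these 7 were called higher in SMC2 than in SMC1, and Olfr550, with 26 counts in SMC2 and 63 in Progenitor, was not (adjusted p = 0.145). Higher in SMC2 than in SMC1 were 16.5% of all genes tested. Low rows enter the test through the population where they are high, so the 7 of 8 is no measure of the cluster.

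A measure over all listed members, tested or not, is the share of SMC2 in the sum of the 4 group means. It was 99.3% for Olfr78 and 99.1% for Olfr558. For the 28 nearby genes with an Olfr symbol in the table it had a median of 52.5% and ran from 20.1% to 99.2%, and for the 679 Olfr genes elsewhere the median was 41.8%. A share above 70%, a threshold chosen after the values were seen, was found in 6 of the 28 and in 21 of the 679. Of the 33 other Olfr genes with at least 100 counts, the 4 above that share were Olfr560, Olfr33, Olfr559 and Olfr561, all within 40.4 kb of the start of Olfr78. The family background of SMC2 replicates 2 and 3 enters these shares, and its part was not tested.

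**Figure D4:**
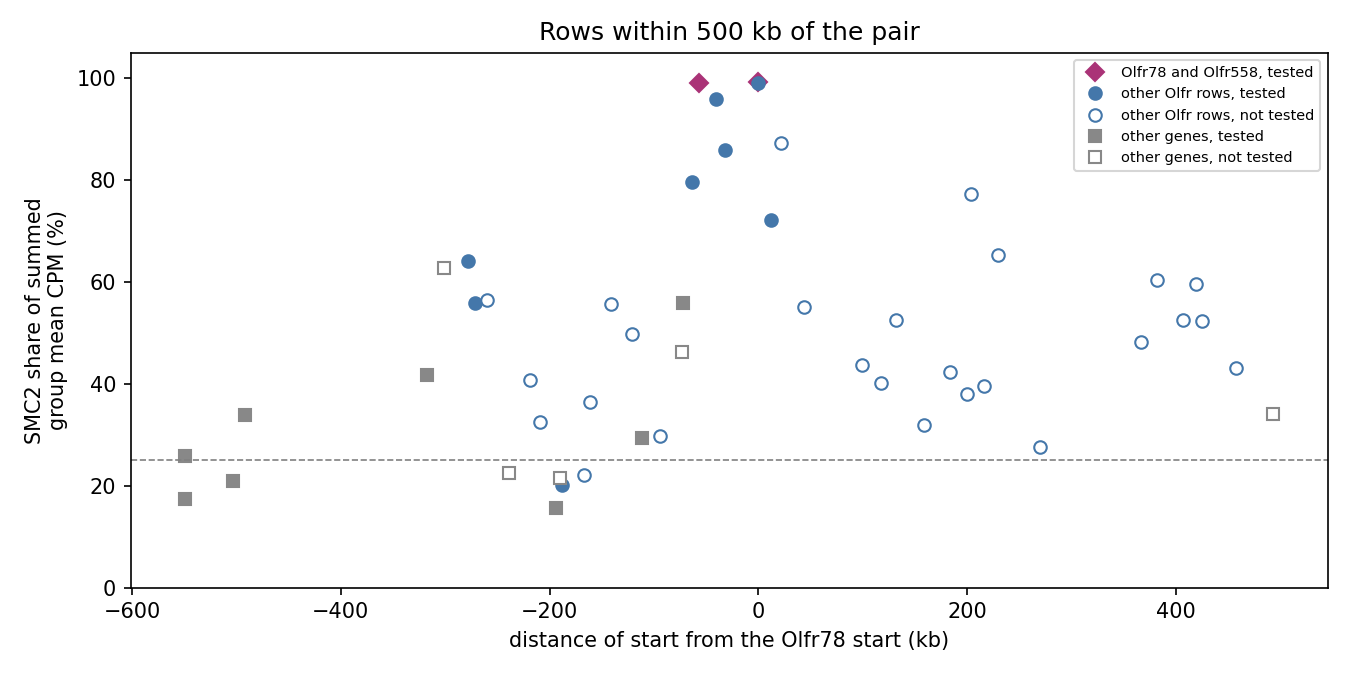
SMC2 share of the summed group means (%) for each gene within 500 kb, against the distance of its start from the start of Olfr78 (kb). Diamonds are the pair, circles other Olfr genes, squares other genes, filled where tested; the dashed line at 25% is an equal level in all 4 populations. The shares of the pair (99.3% and 99.1%) are approached by Olfr560 (99.2%) and Olfr33 (95.9%), and most genes farther out have lower shares.

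Some genes of the region outside the family also changed. Of the 8 that passed the filter (Nup98, Pgap2, Rhog, Stim1, Rrm1, Trim21, Gm2996 and Trim68), 3 were higher in SMC2 than in SMC1 and the others did not pass, with a median log2 change of 0.47. Of all genes tested 34.6% were called in this comparison, 16.5% as higher. Trim68, a ubiquitin ligase gene beginning 14.9 kb from the start of Olfr558, was 2.07 ± 0.21 higher (adjusted p = 1.93e-07). Rrm1, a subunit of ribonucleotide reductase, was 1.27 ± 0.19 higher (adjusted p = 1.98e-05), and Stim1, the calcium sensor of the endoplasmic reticulum, 0.80 ± 0.17 (adjusted p = 0.00108). All 3 had at least 83 counts in every library.

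The cascade that olfactory receptors use in the nose was present in part. Of 24 listed genes of odorant signalling and receptor transport, 20 were tested between SMC2 and SMC1, 9 were higher, 3 lower and 8 not called, with a median log2 change of 0.55 against -0.003 over all genes (background 34.6% called, with 16.5% higher and 18.1% lower). Adcy3, the cyclase of odorant signalling, was at 83.4 ± 25.3 CPM in SMC2 and 54.6 ± 8.95 in SMC1 (0.61 ± 0.21, adjusted p = 0.0325). Ric8b, a chaperone and exchange factor of Golf, was 0.48 ± 0.16 higher (adjusted p = 0.0226). Gnal itself was low and did not pass, at 3.54 ± 0.471 CPM in SMC2 and 4.06 ± 0.604 in SMC1 (adjusted p = 0.555). Grk3, the kinase that turns off odorant receptors, rose by 1.98 ± 0.21 (adjusted p = 2.42e-07), and Reep1, a receptor transport protein, by 1.49 ± 0.17 (adjusted p = 7.03e-07).

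Other members of the odorant cascade went down. Ano2, the chloride channel of olfactory cilia, fell by 1.78 ± 0.22 on the log2 scale and Pde4a, a cyclic AMP phosphodiesterase, by 1.48 ± 0.19 (adjusted p = 2.38e-06 and 2.48e-06). The nasal receptor transporters Rtp1, Rtp2 and Rtp3 had 20 to 60 counts over all libraries and were not tested. Between Progenitor and Intermediate, where the pair did not pass, 3 of the 20 were higher in Intermediate and 2 lower, with a median of -0.11 against 0.08 over all genes (background 22.2% called, with 12.7% higher and 9.46% lower).

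Receptors for other small metabolites were few. Of 12 listed in the table, 6 were tested between SMC2 and SMC1, of which 4 were higher and 2 not called (median log2 change 2.42, background 34.6% called and 16.5% higher). Here too a low row enters the test through the population where it is high, so these counts are no measure of the list. Members with a group mean over 1 CPM numbered 5 in SMC2, 3 in SMC1, 2 in Intermediate and 2 in Progenitor. Gpbar1, the bile acid receptor, was at 36.1 ± 12.3 CPM in SMC2 and 0.818 ± 0.142 in SMC1 (5.45 ± 0.33, adjusted p = 2.16e-10). Hcar1, the lactate receptor, was at 14.0 ± 4.34 and 1.92 ± 0.408 (2.87 ± 0.33, adjusted p = 8.49e-07), and Hcar2, a receptor for butyrate and ketone bodies, at 7.44 ± 2.34 and 1.52 ± 1.68 (2.28 ± 0.58, adjusted p = 0.00525). Sucnr1, the succinate receptor, is counted among the 4 at levels of only 0.343 and 0.048 CPM. It entered the test through Progenitor or Intermediate, so no p is given. The classical short-chain fatty acid receptor Ffar2 had 26 counts in all and was not tested, and Ffar3 was not analysed here. From Progenitor to Intermediate 2 of the 6 were called lower, Hcar1 and Sucnr1, and the others did not pass (median -0.59, background 22.2% called and 9.46% lower). That count was 0 to 3 when single libraries were left out (0 without Progenitor replicate 3 or any single Intermediate library). The filter limits it as well, since Sucnr1 entered the test through 1 of these populations.

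Genes that take up and burn short-chain acids and lactate went both ways. Of 21 tested, 8 were higher in SMC2 than in SMC1, 7 lower and 6 not called, with a median log2 change of 0.18 (background 34.6% called, with 16.5% higher and 18.1% lower), and 8 in all were called without SMC1 replicate 3. Acss1, the mitochondrial enzyme that activates acetate, was at 222.9 ± 81.1 CPM in SMC2 and 27.2 ± 4.36 in SMC1 (3.03 ± 0.24, adjusted p = 6.28e-09). Acsm3, which activates medium-chain acids, rose by 4.21 ± 0.55 and Acadm, a dehydrogenase of fatty acid oxidation, by 1.21 ± 0.18 (adjusted p = 4.12e-06 and 1.57e-05). The transporter Slc16a1, which carries lactate and short-chain acids, was 0.86 ± 0.18 higher (adjusted p = 0.000648). Between Progenitor and Intermediate 1 was higher and 2 lower (median 0.08, background 22.2% called), and 1 in all was called without Progenitor replicate 3 or without Intermediate replicate 2.

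Of 30 genes of the cyclic AMP cascade, all tested, 12 were higher in SMC2 than in SMC1, 7 lower and 11 not called (median log2 change 0.42, background 34.6% called, with 16.5% higher and 18.1% lower). Among the regulatory subunits of protein kinase A, Prkar1b was at 148 ± 37.2 CPM in SMC2 and 6.29 ± 1.69 in SMC1 (4.56 ± 0.25, adjusted p = 6.01e-11) and Prkar2b was at 70.5 ± 18.2 and 3.31 ± 0.826 (4.41 ± 0.27, adjusted p = 2.65e-10). Crem, a transcription factor of the cascade, rose by 3.10 ± 0.20 and Pde10a, a phosphodiesterase, by 4.47 ± 0.31 (adjusted p = 2.74e-10 and 1.58e-09). Between Progenitor and Intermediate 7 were higher in Intermediate, 4 lower and 19 not called (median 0.19, background 22.2% called, with 12.7% higher and 9.46% lower).

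The last list holds genes of oxygen-sensing glomus cells and renin cells, where Olfr78 is known. Of 17 tested, 8 were higher in SMC2 than in SMC1, 1 was lower and 8 were not called (median log2 change 1.11, background 34.6% called, with 16.5% higher and 18.1% lower). Ndufa4l2, a mitochondrial protein induced in hypoxia, rose by 5.75 ± 0.31 to 81.5 ± 21.8 CPM (adjusted p = 5.31e-11), and Cox4i2, the hypoxia-linked subunit of cytochrome oxidase, by 3.55 ± 0.25 (adjusted p = 9.07e-10). Rgs4, a regulator of G protein signalling, was at 3207 ± 882 CPM in SMC2 and 239 ± 9.58 in SMC1 (3.75 ± 0.23, adjusted p = 1.85e-10). Kcnk3, an acid-sensitive potassium channel, rose by 3.93 ± 0.26 (adjusted p = 8.68e-10) and Epas1, the oxygen-regulated factor HIF-2 alpha, by 1.09 ± 0.25 (adjusted p = 0.00209). Ren1, renin, was low at 0.601 ± 0.261 CPM in SMC2 and did not pass (1.28 ± 0.67, adjusted p = 0.147). Between Progenitor and Intermediate 1 rose, 2 fell and 14 were not called (median 0.22, background 22.2% called).

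The genes whose levels followed the pair most closely were taken as the 8 with the highest Pearson correlation of log2 CPM over the 12 libraries, among 9007 genes. The 12 points fall into 4 populations, so a high value chiefly says that a gene has the same order of populations, and it is given with no test. Olfr558 was the gene most like Olfr78 (r = 0.992), and the 8 included Casq2 (0.988), Prdm1 (0.985), Ndufab1 (0.985), Rergl (0.983), Tmem51 (0.982) and Syne2 (0.982). For Olfr558 they included Casq2 (0.995), Olfr78 (0.992), Gpr20 (0.992), Prdm1 (0.992), Mrgprh (0.990), Trpc6 (0.990) and Myl1 (0.989). Casq2 and Prdm1 were among the genes on both lists. A correlation above 0.95 was reached by 114 genes with Olfr78 and by 156 with Olfr558.

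For 4 of these genes the levels are given here. Trpc6, a receptor-operated cation channel, was at 46.4 ± 8.86 CPM in SMC2 and 1.93 ± 0.198 in SMC1. Casq2, the calcium store protein calsequestrin, was at 226 ± 30.6 CPM in SMC2 and 2.11 to 4.57 in the SMC1 libraries. Gpr20 and Mrgprh are G protein-coupled receptors, at 157 ± 47.6 and 23.9 ± 11.0 CPM in SMC2 and 2.44 ± 0.222 and 0.476 ± 0.0763 in SMC1. The log2 changes of these 4 genes from SMC1 to SMC2 lay between 4.58 ± 0.24 for Trpc6 and 6.01 ± 0.28 for Gpr20, below the 7.54 and 7.21 of the pair.

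**Figure D5:**
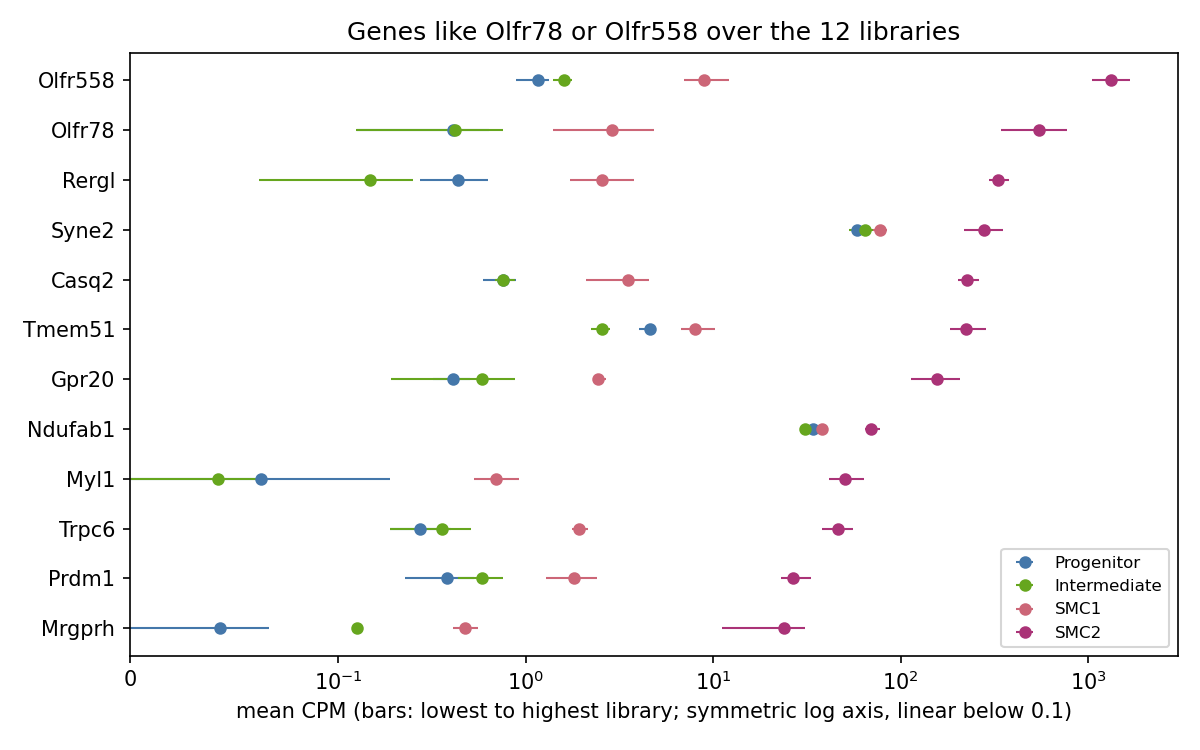
Mean CPM of the pair and of the genes named as most like them in the 4 populations, with bars from the lowest to the highest library, on a symmetric log axis that is linear below 0.1. All have their highest mean in SMC2, at 1322 CPM for Olfr558 and 546.8 CPM for Olfr78, and Syne2 and Ndufab1 have the narrowest range between populations.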

How the data were processed

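The authors deposited raw read counts per gene (33352 rows), a signal of normalized counts, which equal the counts divided by DESeq2 size factors, and regularized log2 values. Of tools and builds, the notes of the submitters on processing name STAR 2.5.2a, mm10 and DESeq2 1.26.0; the counting program and annotation release are not given in the sources used here. Per the labels' protocols, a SMART-Seq v4 kit amplified poly(A) RNA; it does not mark strand. Multiplying the normalized counts by the size factors gave whole reads for 100% of values (tolerance 0.01), all equal to the raw counts, and the same number of called genes. Columns left unused number 0.

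The test of the counts ran in R 4.3.3 with edgeR 4.0.16 and limma 3.58.1, on 19016 genes kept by filterByExpr. It used TMM factors, group means over all 12 libraries (8 residual degrees of freedom) and quasi-likelihood F statistics, two-sided. P-values were adjusted by Benjamini and Hochberg's method, with 0.05 as threshold. The standard error is the log2 change divided by the square root of F. Log2 CPM used a prior count of 2. Scripts were tested on simulated data. Positions come from GENCODE M21, which matched 33323 rows. Depth was 13258631 to 22647175 counts per library. Replicates of a group differed beyond sampling noise (chi-square per degree of freedom at least 9.31).

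The members, lists, tests and the rule for named genes were chosen with earlier results of these data known. The rule names the pair; the 6 other Olfr genes with the highest mean CPM and the 6 with the smallest p; per list the 4 called members with the smallest adjusted p between SMC2 and SMC1 and up to 4 known for a role with these receptors; the 8 genes most like each receptor; and up to 10 tested neighbours. A few of the genes it names are not reported here. Sequences come from RefSeq (GRCm38.p6) and GENCODE transcripts. Same-numbered Intermediate and Progenitor libraries deviated weakly together (correlations 0.17, 0.19 and 0.17). The tests reported did not pair libraries in any comparison, and a replicate block was fitted only as an alternative. In each of the 5 other comparisons at least 1 correlation was below 0.1, although replicate 3 of SMC2 and Intermediate reached 0.35. The alternatives were other scaling factors, DESeq2 1.42.0, other filters, a replicate block, fits of 2 groups, single libraries left out and the authors' own values.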

Additional observations from a re-analysis of the deposited data

How the results depend on the processing

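Of 837 values recomputed for 44 results, 775 kept their direction and call or stayed within the allowed range. The log2 changes of the pair in the 5 comparisons with SMC2 or SMC1 kept their sign in every fit, and without single libraries they ran from 7.19 to 8.11 (Olfr78) and 6.99 to 7.51 (Olfr558) between SMC2 and SMC1. The authors' regularized log2 values gave smaller changes, 9.41 and 9.51 for the pair from Progenitor to SMC2 and 9.17 for Olfr558 from Intermediate to SMC2, since such values are shrunken at low counts. Olfr78 between Progenitor and Intermediate had no stable sign, with 0.063 under the replicate block (replicate numbers as pairs) and -0.74 to 0.53 without single libraries (0.53 and 0.02 without Progenitor replicates 1 and 2, 0.41 and 0.04 without Intermediate replicates 1 and 3).

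Counts of other Olfr genes called moved with the filter, which decides how many low genes are tested: with no filter they were 42 (SMC2 minus SMC1), 56 (SMC2 minus Intermediate), 49 (SMC1 minus Progenitor) and 16 (Intermediate minus Progenitor), and with at least 10 counts in 3 libraries 3 in the last. Fits of the 2 groups compared gave 9 for SMC2 minus Intermediate and 7 for SMC1 minus Intermediate. The replicate block gave 9 for Intermediate minus Progenitor and changed no other call of the pair. Without single libraries the counts ran from 12 to 45, 11 to 44, 14 to 35, 10 to 18 and 3 to 9 in the order SMC2 minus SMC1, SMC2 minus Intermediate, SMC1 minus Progenitor, SMC1 minus Intermediate and Intermediate minus Progenitor. The cause was not tested.

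Olfr genes within 500 kb called between Intermediate and Progenitor (1) were 2 with upper-quartile factors and 0 with DESeq2, with no filter and with the 2 groups compared; between SMC1 and Intermediate (1) they were 2, 2 and 0 in the latter 3 settings, and between SMC1 and Progenitor (3) 1 with the 2 groups compared. Their ranges without single libraries were 0 to 1, 0 to 2 and 1 to 3. Intermediate minus Progenitor gave 1 metabolite receptor with the 2 groups compared (range 0 to 3) and 1 short-chain acid gene with no filter (range 1 to 3), and 2771 to 4227 genes in all, the lowest without Intermediate replicate 2. Short-chain acid genes called between SMC2 and SMC1 ranged from 8 to 16. Detection of other Olfr genes was 707 of 707 at 1 count and 698 at 3 counts in any library, against 55. The lists of genes most like the pair rest on the measure: with Spearman's rho 0 and 0 of the 8 were shared with those given, and with a prior count of 0.5 it was 5 of 8 for Olfr558. Upper-quartile factors moved the median of all genes by over 0.1, to 0.107 (SMC2 minus SMC1), -0.187 (SMC1 minus Progenitor) and -0.08 (Intermediate minus Progenitor). For SMC2 minus Intermediate it moved by less, from 0.037 to 0.122. Low counts limit Olfr78 in Progenitor and Intermediate, where a library held as few as 2.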

Other observations

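A second group of olfactory receptor genes had its own pattern, highest in SMC1. Olfr224, Olfr328, Olfr329 and Olfr330 lie next to each other on chromosome 11 of GRCm38, with gene bodies from 58527186 (the start of Olfr330) to 58570553 (the end of Olfr224). The last 3 were chosen after their values were seen. Olfr330 had 37, 24 and 49 counts in SMC1, 8, 15 and 24 in SMC2, 6, 3 and 7 in Progenitor and 0, 0 and 6 in Intermediate. Olfr329 had 31, 27 and 36 counts in SMC1 and at most 7 in any other library, and Olfr328 had 16, 15 and 28 in SMC1 and at most 16 elsewhere. Group means in SMC1 were 12.5 CPM for Olfr224, 1.96 for Olfr330, 1.65 for Olfr329 and 1.05 for Olfr328. No test is given, since these genes were picked for this pattern.

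The 3 listed subunits of the cation channel that cyclic AMP opens in olfactory cilia had different patterns, which were chosen for mention after their values were seen and are given with no test. Cnga2 had a mean of 6.41 ± 2.61 CPM among Progenitor libraries (SD, n = 3), against 0.315 ± 0.127 for Intermediate, 0.225 ± 0.163 for SMC1 and 0.165 ± 0.128 for SMC2. For Cnga4 the means were 2.06 ± 0.492, 1.22 ± 0.0873, 0.163 ± 0.113 and 1.18 ± 0.331 CPM in the same order of populations. For Cngb1 they were 1.06 ± 0.668, 0.649 ± 0.254, 0.443 ± 0.232 and 1.70 ± 1.45 CPM, with SMC2 libraries between 0.276 and 3.18. In SMC2 all 3 were thus below 2 CPM as group means.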
